A study of Mus musculus with 3 samples.

Results

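The genes described here encode the receptor chains for interleukin (IL)-2, IL-7, IL-12, IL-15, IL-18 and IL-33 in tumor-infiltrating lymphocytes (TILs). The 10 genes, *Il2ra*, *Il2rb*, *Il2rg*, *Il7r*, *Il15ra*, *Il12rb1*, *Il12rb2*, *Il18r1*, *Il18rap* and *Il1rl1*, were taken by symbol from the 32285 genes of the count tables, and each symbol was found. The TILs were taken from tumors grown under the skin from MC38-Ova, a mouse colon adenocarcinoma line that carries ovalbumin. The hosts were wild-type C57BL/6 mice with the Kaede transgene, whose protein violet light turns from green to red. All tumors carry the label isotype control treated, were photoconverted on day 13 and were harvested on day 15, and the labels give no age for the mice, for which the study's methods state only a range of ages over the whole project. Kaede-green (KG+) cells, which entered in the last 48 h, made 2 libraries labeled as biological replicates (Kaede-green 1 and Kaede-green 2), and Kaede-red (KR+) cells, which were already inside at photoconversion, made 1 (Kaede-red). Where 3 values follow one another, they are in the library order Kaede-green 1, Kaede-green 2, Kaede-red. The sort took live CD45+ Ter119- cells with absent or low CD11b, the product of *Itgam*, and removed most myeloid cells. The Itgam+ NK group defined below thus holds only cells that passed this limit on CD11b protein. The study states that its gating captured the NK cells in full. No untreated or non-tumor sample was analyzed here.

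IL-2 and IL-15 share the signaling chains IL-2Rβ (*Il2rb*) and γc (*Il2rg*), and each adds a private chain, CD25 (*Il2ra*) or IL-15Rα (*Il15ra*). IL-7 pairs *Il7r* with γc, and these receptors signal through JAK1, JAK3 and STAT5. IL-12 binds *Il12rb1* and *Il12rb2* and signals through TYK2, JAK2 and STAT4, while IL-18 binds *Il18r1*, recruits *Il18rap* and signals through MyD88, as does the IL-33 receptor ST2 (*Il1rl1*). In NK cells, IL-15 is known for survival, and IL-12 with IL-18 for the release of interferon-γ.

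Cells were gated on their UMI counts (unique molecular identifiers, 1 per captured transcript). NK cells had at least 1 UMI of *Ncr1* and at most 1 of *Cd3e* (7458 cells). ILC-like cells met the same gate with at least 2 UMIs of *Rora* and none of *Eomes* (455 cells) and were taken out of the NK cells. CD8 T cells numbered 8268, CD4 T cells without *Foxp3* 943, and Treg cells with *Foxp3* 1557. NK cells were further split into Itga1+ NK cells, with *Itga1* (CD49a) and no *Itgam* (1947 cells), and Itgam+ NK cells, with *Itgam* (CD11b) and no *Itga1* (750 cells). The other NK cells, with both integrins or neither, stayed in the NK sums only.

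The gates held the markers of their names. Summed over 7 NK markers, NK cells reached 10261 to 12942 CPM (UMIs of a gene per 1000000 UMIs of the gate) against 1059 to 4877 CPM in the T cell gates, and over 4 T cell markers NK cells held 307 to 444 CPM against 3613 to 5391 CPM. ILC-like cells held 492 to 518 CPM of the T cell markers and 631 to 712 CPM of the 5 ILC markers, of which NK cells held 131 to 175 CPM. The ILC markers were not particular to this gate, at 366 to 471 CPM in CD8 T, 370 to 555 in CD4 T and 287 to 401 in Treg cells. ILC-like cells also held 6445 to 6984 CPM of the NK markers, which include *Eomes*, absent by the gate. The CD4 T gate, defined as free of *Foxp3* UMIs, still held 1477 to 2668 CPM of the 4 Treg markers, highest in Kaede-red. Library totals were 87193225, 129438292 and 175848894 UMIs. The median NK cell held 5909, 7819 and 16950 UMIs, so levels are given as CPM of the UMIs of all cells in a gate, per library. In such a sum, fewer cells with a transcript and fewer transcripts per cell cannot be told apart, and shares of cells are given separately.

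Of the 10 genes, 5 lie in a pair of clusters (GENCODE annotation of GRCm38, the build of the counts). On chromosome 1, *Il1rl1* (40429570 to 40465415), *Il18r1* (40465552 to 40500854) and *Il18rap* (40515362 to 40551705) follow each other on the plus strand. Only 136 bases separate *Il1rl1* from *Il18r1*, and 14507 bases separate *Il18r1* from *Il18rap*. On chromosome 2, *Il2ra* (11642807 to 11693193) ends 12096 bases before *Il15ra* starts. The other genes stand apart, *Il12rb1* on chromosome 8, *Il12rb2* on 6, *Il2rb* and *Il7r* on 15 and *Il2rg* on X. The minus-strand *Il12rb2* shares 6419 bases with *Serbp1* on the plus strand, and whether reads were counted by strand is not given in the sources used here.

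The sequences just before the start sites follow for some of the genes whose levels differed between the NK groups or between NK and T cells. The whole gap between *Il1rl1* and *Il18r1* is among them. They are RefSeq promoter windows (GRCm38.p6) on the gene's own strand, 5′ to 3′, up to the base before the start site, without bases of any annotated exon. The *Il7r* window lies inside the annotated gene, whose GENCODE model (9505788 to 9530176, minus strand) begins upstream of the RefSeq start used here, and 86 bases of exon were left out of it. Capitals mark TTCNNNGAA, the palindrome that STAT dimers are known to bind.
Il12rb2 (chr6:67376189-67376438, minus strand): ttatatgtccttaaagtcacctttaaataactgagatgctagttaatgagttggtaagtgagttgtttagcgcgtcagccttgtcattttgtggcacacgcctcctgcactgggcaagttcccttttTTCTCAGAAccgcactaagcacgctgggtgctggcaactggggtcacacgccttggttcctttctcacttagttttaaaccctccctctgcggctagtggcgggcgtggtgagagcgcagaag
Il7r (chr15:9529877-9530040, minus strand): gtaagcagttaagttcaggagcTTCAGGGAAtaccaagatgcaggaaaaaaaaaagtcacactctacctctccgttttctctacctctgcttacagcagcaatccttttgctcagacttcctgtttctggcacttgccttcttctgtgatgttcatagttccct
Il18r1 (chr1:40465416-40465551, plus strand): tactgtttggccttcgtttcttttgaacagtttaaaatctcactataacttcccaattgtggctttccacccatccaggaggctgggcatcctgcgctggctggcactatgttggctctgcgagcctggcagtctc
Il18rap (chr1:40515112-40515361, plus strand): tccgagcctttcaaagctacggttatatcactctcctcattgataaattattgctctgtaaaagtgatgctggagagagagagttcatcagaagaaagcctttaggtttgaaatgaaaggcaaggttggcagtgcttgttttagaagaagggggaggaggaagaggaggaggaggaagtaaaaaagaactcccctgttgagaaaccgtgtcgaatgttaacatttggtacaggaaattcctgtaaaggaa
Il2ra (chr2:11642542-11642791, plus strand): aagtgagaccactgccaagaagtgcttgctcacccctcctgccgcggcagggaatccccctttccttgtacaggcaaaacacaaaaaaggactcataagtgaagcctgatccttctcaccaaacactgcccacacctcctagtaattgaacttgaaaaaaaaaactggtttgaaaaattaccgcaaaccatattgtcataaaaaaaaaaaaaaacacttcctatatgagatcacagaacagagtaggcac
Windows of 250 bases were at hand for 8 of the 10 genes (not *Il2rb* and *Il12rb1*). TTCNNNGAA was found in 7.02% of all 32851 windows. *Il12rb2* held 1 match, which starts 123 bases before the start site (position -123), and *Il7r* held 1 (position -142). *Il18r1* held 2 before its most downstream annotated start (positions -219 and -152) and none in the gap printed above. The window of that start lies inside the annotated *Il18r1* gene, and its match at -219 falls among exon bases. *Il18rap*, *Il2ra*, *Il2rg*, *Il15ra* and *Il1rl1* held none. The T-box motif GGTGTGA (3.33% of all windows) and the Runx motif TGTGGTT (4.40%), searched on both strands, had no match in any window of the 8 genes. A match here is a run of letters and not a measured binding site.

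The first comparison asked how the receptor chains are spread over NK, ILC-like and T cells. NK and ILC-like cells had the highest *Il2rb*, Treg cells had the highest *Il2ra*, *Il12rb1*, *Il15ra* and *Il1rl1*, and *Il2rg* was called between none of the cell types. *Il7r* was 22.1-fold to 28.2-fold lower in NK cells than in the T cell types, with NK values of the Kaede-green libraries near those of B cells. *Il12rb2* and *Il18rap* were lower in Treg cells than in NK, CD8 T and CD4 T cells, which overlapped one another. Each was tested with edgeR's quasi-likelihood test on sums of UMIs per library and cell type, with the library as a block and Benjamini-Hochberg adjustment over 11075 genes. All 10 genes passed the filter on low counts.

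**Figure D1:**
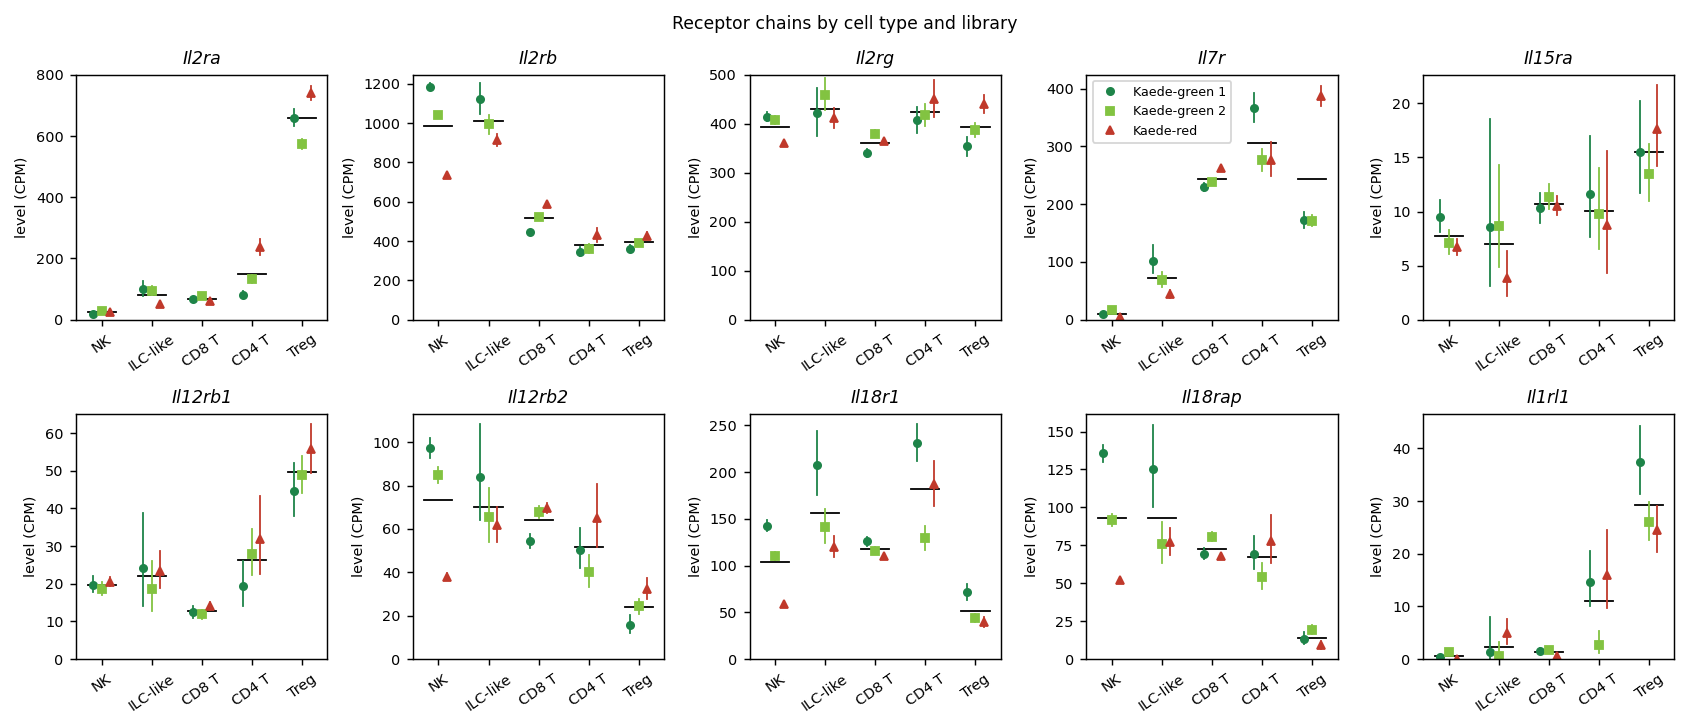
Level of each receptor gene (CPM, y axis from 0, own scale per gene) in 5 cell types (x axis), with 1 point per library (green circle Kaede-green 1, light green square Kaede-green 2, red triangle Kaede-red), its exact Poisson 95% interval, and the mean of the 3 libraries as a black line. *Il2ra* stands out in Treg cells at 574 to 740 CPM, *Il2rb* in NK and ILC-like cells at 736 to 1185 CPM, and *Il2rg* lies between 340 and 459 CPM throughout.

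*Il2rb*, the signaling chain of the IL-2 and IL-15 receptors, was at 1185, 1040 and 736 CPM in NK cells. It was at 1121, 993 and 912 CPM in ILC-like cells, 447, 523 and 588 in CD8 T cells, 347, 360 and 428 in CD4 T cells and 361, 391 and 426 in Treg cells. Every NK and ILC-like value was above every T cell value. The level in NK cells was 1.92-fold that in CD8 T cells (log2 fold change 0.94, SE 0.15, adjusted p = 0.000272), 2.86-fold that in CD4 T cells (adjusted p = 5.22e-06) and 2.80-fold that in Treg cells (adjusted p = 3.09e-06). NK and ILC-like cells did not differ beyond their spread (log2 fold change -0.01, SE 0.15, adjusted p = 1), and neither did CD4 T and Treg cells (-0.03, SE 0.15, adjusted p = 0.916). CD8 T cells lay above CD4 T cells (0.57, SE 0.15, adjusted p = 0.0162) and Treg cells (0.54, SE 0.15, adjusted p = 0.0138), and both calls were lost without Kaede-green 2 (adjusted p = 0.204 and 0.171). The first was lost without Kaede-green 1 as well (0.0639), and the second after every cell was thinned to 2000 UMIs (0.0833).

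*Il2rg*, the γc chain that all of the IL-2, IL-7 and IL-15 receptors use, was called in none of the 8 tests between cell types or NK groups (edgeR's quasi-likelihood test), in 0 at an unadjusted p under 0.05, and in 0 by DESeq2. Its level was 414, 408 and 360 CPM in NK cells, and 340, 380 and 364 CPM in CD8 T cells, so the groups overlapped. Over ILC-like, CD4 T and Treg cells it ranged from 354 to 459 CPM. The log2 fold change between any pair of cell types tested was at most 0.17 (NK over Treg cells, SE 0.09, adjusted p = 0.163). Without Kaede-red this difference was 0.26 and was called (adjusted p = 0.0126).

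*Il2ra*, which encodes CD25 and raises the affinity for IL-2, was at 661, 574 and 740 CPM in Treg cells, whose growth depends on IL-2. It was at 81.2, 134 and 236 CPM in CD4 T cells, 99.6, 94.4 and 52.6 in ILC-like cells, 66.6, 75.9 and 60.4 in CD8 T cells and 20.1, 28.5 and 26.5 in NK cells. Treg and NK cells overlapped no other type, and ILC-like cells overlapped CD8 T and CD4 T cells. NK cells were 23.6-fold below Treg cells (log2 fold change -4.56, SE 0.31, adjusted p = 9.75e-08), 5.23-fold below CD4 T cells (-2.39, SE 0.30, adjusted p = 3.80e-05) and 2.67-fold below CD8 T cells (-1.42, SE 0.28, adjusted p = 0.00181), the last lost without Kaede-green 2 (adjusted p = 0.0520). ILC-like cells were 3.05-fold above NK cells (1.61, SE 0.31, adjusted p = 0.0130), which was lost without either Kaede-green library (adjusted p = 0.159 and 0.271). CD4 T cells lay above CD8 T cells (CD8 over CD4 T, -0.97, SE 0.29, adjusted p = 0.0281), and this call was lost without Kaede-green 2 (adjusted p = 0.157) and when cells that met more than 1 T cell gate were kept (-0.53, adjusted p = 0.227).

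*Il15ra*, the chain that binds and presents IL-15, was low in all cell types. Treg cells held 15.6, 13.4 and 17.7 CPM, CD8 T cells 10.3, 11.3 and 10.5, CD4 T cells 11.7, 9.74 and 8.74, NK cells 9.53, 7.13 and 6.69, and ILC-like cells 8.54, 8.69 and 3.85 CPM from only 6, 15 and 15 UMIs. Treg cells were highest in each library. Of the 7 tests between cell types only that of NK against Treg cells was called (log2 fold change -0.85, SE 0.19, adjusted p = 0.00298), and NK cells were called below CD8 T cells without Kaede-red (-0.42, adjusted p = 0.0323), with doublets kept (-0.48, adjusted p = 0.0293) and after thinning (-0.73, adjusted p = 0.0211). Neighbors in the order did not differ beyond their spread where tested.

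*Il7r*, which lymphocytes use for survival on IL-7, divided NK cells from T cells. Its level was 9.24, 16.1 and 5.34 CPM in NK cells and 102, 68.9 and 43.9 CPM in ILC-like cells. CD8 T cells held 230, 238 and 263 CPM, CD4 T cells 367, 276 and 276 CPM, and Treg cells 172, 172 and 387 CPM. NK cells were lowest, ILC-like cells stood between, and the 3 T cell types overlapped. In the Kaede-green libraries the NK level was near that of B cells (10.4 and 10.8 CPM), the background of free RNA. The folds against NK cells thus rest on a value near background. NK cells were 24.2-fold below CD8 T cells (log2 fold change -4.60, SE 0.43, adjusted p = 2.66e-06), 28.2-fold below CD4 T cells and 22.1-fold below Treg cells. The last difference was -4.46 on the log2 scale, -3.62 without Kaede-red and -5.14 without Kaede-green 2. ILC-like cells were 6.51-fold above NK cells (2.70, SE 0.43, adjusted p = 0.00399), a call lost without Kaede-green 1 (2.37, adjusted p = 0.103). No pair of T cell types was called (adjusted p from 0.536 to 0.840), but without Kaede-red both CD8 T cells (0.58, adjusted p = 0.0283) and CD4 T cells (0.94, adjusted p = 0.00250) were called above Treg cells.

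*Il12rb1*, the IL-12 receptor chain shared with the IL-23 receptor, was at 44.7, 48.9 and 55.7 CPM in Treg cells. It was at 19.4, 27.9 and 31.8 CPM in CD4 T cells, 24.2, 18.5 and 23.4 in ILC-like cells, 19.8, 18.7 and 20.6 in NK cells and 12.4, 11.9 and 14.1 in CD8 T cells. Treg cells lay above and CD8 T cells below all other types, and the middle types overlapped. Treg cells were 2.25-fold above NK cells (adjusted p = 3.22e-06), 1.86-fold above CD4 T cells (adjusted p = 0.000583) and 3.54-fold above CD8 T cells (adjusted p = 2.46e-07). NK cells were 1.57-fold above CD8 T cells (log2 fold change 0.65, SE 0.12, adjusted p = 0.000791), but not once every cell was thinned to 2000 UMIs (0.34, adjusted p = 0.209). CD8 T cells lay below CD4 T cells (-0.92, SE 0.14, adjusted p = 0.000563), which was lost without Kaede-green 2 (adjusted p = 0.0674) and after thinning (-0.33, adjusted p = 0.487).

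*Il12rb2*, the chain that recruits STAT4, was lowest in Treg cells. It was at 97.2, 84.9 and 38.0 CPM in NK cells, 84.0, 65.5 and 61.6 in ILC-like cells, 54.3, 67.8 and 69.8 in CD8 T cells, 50.5, 40.0 and 65.2 in CD4 T cells and 15.8, 24.2 and 32.2 in Treg cells. Treg cells lay below all other types without overlap, and the other types overlapped one another. Treg cells were 3.29-fold below NK cells (NK over Treg, log2 fold change 1.72, SE 0.31, adjusted p = 0.000494) and 2.88-fold below CD8 T cells (adjusted p = 0.00180). The difference from CD4 T cells (1.08, SE 0.33, adjusted p = 0.0370) was lost without Kaede-green 1 (adjusted p = 0.226), without Kaede-green 2 (0.174) and after thinning (0.0808). Without Kaede-red, NK cells were also called above CD8 T cells (0.55, adjusted p = 0.00606) and CD4 T cells (1.09, adjusted p = 0.000492), the latter without the filter on low counts too (0.73, adjusted p = 0.00436), and CD8 T above CD4 T cells (0.54, adjusted p = 0.0425). The Treg gate was thus high in one IL-12 receptor chain and low in the other.

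*Il18r1*, which binds IL-18, was at 231, 129 and 187 CPM in CD4 T cells, 208, 141 and 120 in ILC-like cells, 126, 116 and 110 in CD8 T cells, 142, 110 and 59.2 in NK cells and 71.4, 43.6 and 39.2 in Treg cells. Treg cells overlapped NK cells and no other type. CD4 T cells were 3.66-fold above Treg cells (log2 fold change 1.87, SE 0.19, adjusted p = 4.03e-05), CD8 T cells 2.62-fold (adjusted p = 8.23e-05) and NK cells 2.23-fold (adjusted p = 0.000206). NK cells were 1.64-fold below CD4 T cells (-0.71, SE 0.18, adjusted p = 0.00822), a call lost without the library block (adjusted p = 0.0867) and without Kaede-green 1 (0.0609). ILC-like cells were not called against NK cells (0.58, SE 0.19, adjusted p = 0.167), nor CD8 against CD4 T cells (-0.48, SE 0.18, adjusted p = 0.0704), though the latter were called by DESeq2 (adjusted p = 0.0472) and without Kaede-red (adjusted p = 0.0321).

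*Il18rap*, the IL-18 receptor accessory chain, was at 136, 91.9 and 52.3 CPM in NK cells, 125, 75.9 and 77.3 in ILC-like cells, 69.3, 80.5 and 67.9 in CD8 T cells and 69.5, 54.1 and 77.9 in CD4 T cells. Treg cells held only 13.3, 19.3 and 9.13 CPM and lay below all others. They were 6.97-fold below NK cells (adjusted p = 2.66e-06), 5.65-fold below CD8 T cells (adjusted p = 1.51e-05) and 4.73-fold below CD4 T cells (adjusted p = 0.000213). No other pair was called for *Il18rap*. Without Kaede-red, NK cells were called above CD8 T cells (0.55, adjusted p = 0.0181) and CD4 T cells (0.94, adjusted p = 0.00341), the latter also after thinning (0.98, adjusted p = 0.00475) and without the filter (0.66, adjusted p = 0.00545). In Treg cells, both chains of the IL-18 receptor were thus low.

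*Il1rl1*, which encodes the IL-33 receptor ST2 and lies next to *Il18r1*, was highest in Treg cells. Treg cells held 37.5, 26.0 and 24.5 CPM, and CD4 T cells 14.7, 2.69 and 15.9 CPM from 34, 8 and 20 UMIs. CD8 T cells held 1.54, 1.64 and 0.63 CPM, ILC-like cells 1.42, 0.58 and 4.88 CPM and NK cells 0.35, 1.37 and 0.09 CPM. Treg cells lay above all others. They were called against NK cells (NK over Treg, log2 fold change -5.59, SE 0.69, adjusted p = 2.21e-05) and CD8 T cells (-4.44, SE 0.62, adjusted p = 0.000119) but not against CD4 T cells (-1.52, SE 0.66, adjusted p = 0.120), except without Kaede-red (-1.91, adjusted p = 0.00893) and without the filter (-1.55, adjusted p = 0.00348). CD4 T cells were called above NK cells (adjusted p = 0.00186) and CD8 T cells (adjusted p = 0.0151), and neither call held without Kaede-green 1 (adjusted p = 0.0678 and 0.172). The second was also lost when cells of several T cell gates were kept (0.0797). With few UMIs, these sizes moved with the library left out. NK against Treg cells gave -7.15 without Kaede-green 2 and -4.92 without Kaede-red, NK against CD4 T cells -6.16 and -3.00, and CD8 against CD4 T cells -3.79 and -2.21. NK against CD8 T cells, not called otherwise, was called without Kaede-green 2 (-2.38, adjusted p = 0.0266), as was ILC-like against NK cells (4.59, adjusted p = 0.0256). Mast cells, which are known for high ST2, numbered 7 in all 3 libraries together (1, 1 and 5). They held 306, 754 and 512 CPM from only 1, 10 and 36 UMIs. Mast cell markers summed to at most 3.18 CPM in any of the 5 cell types.

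Counted over the receptor genes and read against all genes tested, the calls were as follows. Between ILC-like and NK cells, 2 of 10 were called, against 2.43% of all genes, with 2 higher (1.58%) and 0 lower (0.849%) in ILC-like cells. Between NK and CD8 T cells the count was 4 (25.4% of all genes), with 2 higher (11.7%) and 2 lower (13.7%) in NK cells. Between NK and CD4 T cells it was 5 (36%), 1 higher (16.6%) and 4 lower (19.3%), and between NK and Treg cells 9 (41.7%), 4 higher (19.2%) and 5 lower (22.5%). CD8 T cells had 1 higher (10.4%) and 3 lower (12.7%) than CD4 T cells (23.1% in either direction), and 4 higher (12.6%) and 3 lower (14.9%) than Treg cells (27.4%). CD4 T cells had 3 higher (9.99%) and 2 lower (9.59%) than Treg cells (19.6%). These tests share cell types, and the counts are not independent of one another.

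The share of cells with a transcript was compared at equal depth, after each cell was thinned to 2000 UMIs. The gates were set on the counts before thinning, here and in all thinned sums. Depth could thus still bear on which cells entered a gate. At least 1 UMI of *Il2rb* was found in 83.9% of NK cells (99.3% before thinning), 85.3% of ILC-like, 60.8% of CD8 T, 47.9% of CD4 T and 56.4% of Treg cells. *Il2ra* was found in 63.2% of Treg cells and 3.69% of NK cells. B cells, which served as the background of free RNA for all genes but *Il2rg*, were present in the Kaede-green libraries only (231 cells). They held *Il2rb* in 6.49% and *Il2ra* in 3.03%. In sums of the Kaede-green libraries, B cells held 342 and 270 CPM of *Il2rg*, against 414 and 408 CPM in NK cells. Their *Il2rg* was thus not read as free RNA. By library, *Il2ra* was found in 64 of 2359, 85 of 2340 and 126 of 2758 thinned NK cells, and Kaede-red had no B cells to set beside it. Over the 3 libraries together, the *Il2ra* share of NK cells was close to the background of the Kaede-green libraries. *Il7r* in NK cells (2.16%, exact 95% interval 1.84 to 2.51) was likewise within the interval of B cells (1.73%, 0.47 to 4.37), whereas ILC-like cells stood at 11.6% and the T cell types at 33.8% to 36.2%.

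*Il18r1* was detected in 19.5% of NK, 26.6% of ILC-like, 21.2% of CD8 T, 26.5% of CD4 T and 9.25% of Treg cells, against 2.16% of B cells. *Il18rap* was detected in 19.1%, 18.9%, 14.2%, 11.0% and 3.34% of the same types, against 1.73% of B cells, and its share in Treg cells lay within the B cell interval (0.47 to 4.37). *Il12rb2* ranged from 5.78% of Treg to 14.6% of NK cells, against 2.16% of B cells. *Il12rb1* was found in 10.3% of Treg cells and in 2.83% to 3.96% of the others, and *Il1rl1* in 5.40% of Treg and 2.01% of CD4 T cells. *Il12rb1* and *Il15ra* were found in 0 of 231 B cells, for which the exact interval reaches 1.58%. Intervals cover counting error only.

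**Figure D2:**
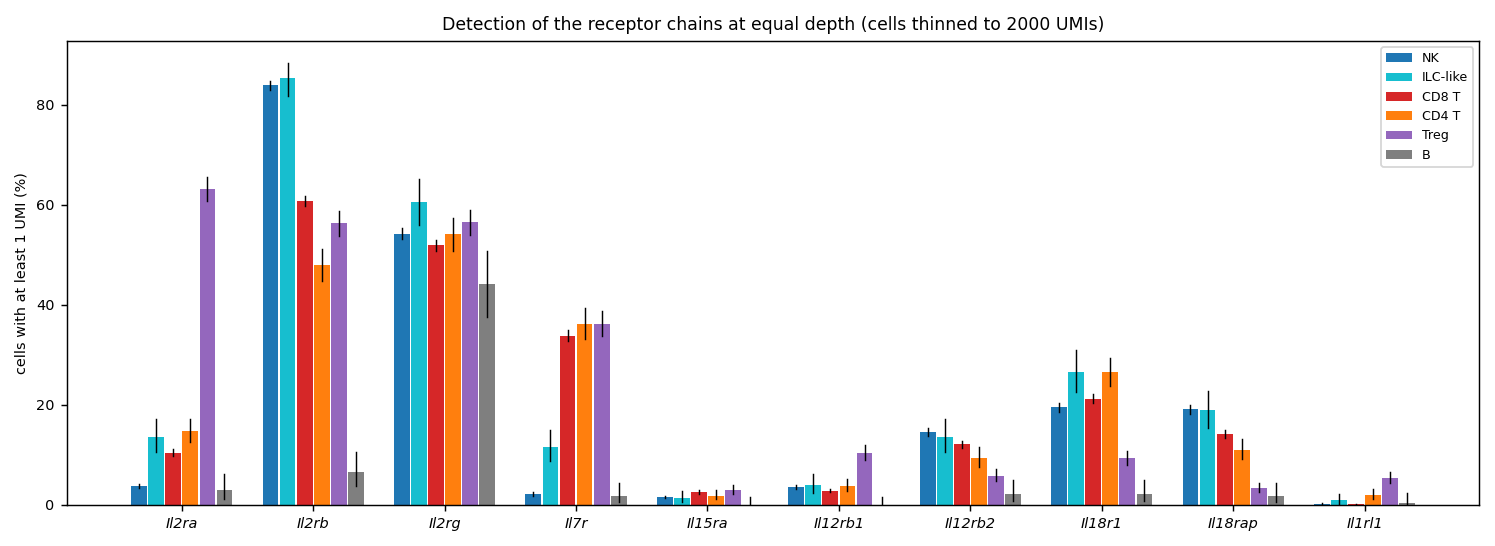
Share of cells with at least 1 UMI (%, y axis from 0) of each receptor gene (x axis), by cell type (colors). Cells of the 3 libraries are pooled, with each cell thinned to 2000 UMIs. Black lines are exact binomial 95% intervals. Gray bars are B cells, which serve as the background of free RNA for all genes but *Il2rg*. *Il2rb* reaches 83.9% in NK cells, *Il2ra* 63.2% in Treg cells, and *Il7r* in NK cells (2.16%) is at the level of B cells (1.73%).

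Both chains of the IL-18 receptor were seen in the same cell more often than the product of their shares gives. In thinned NK cells, *Il18r1* and *Il18rap* were both seen in 193, 112 and 61 cells, which is 1.22, 1.16 and 1.37 times that product. The ratio was 1.59, 1.34 and 1.38 in CD8 T cells and 1.56, 1.80 and 1.75 in CD4 T cells. It was above 1 in each library of these 3 cell types, while in Treg cells only 3, 9 and 0 cells held both. For *Il2ra* and *Il7r* the ratio was 1.44, 1.23 and 1.22 in CD8 T cells and 1.09, 1.13 and 1.08 in Treg cells, but 0.44, 0.91 and 1.20 in CD4 T cells, and in NK cells only 2, 6 and 5 cells held both. *Il12rb1* and *Il12rb2* gave 1.04, 1.23 and 0.68 in NK cells and were above 1 in CD8 T cells only in Kaede-green 1, with no direction common to the libraries. *Il2rb* and *Il2rg* gave 0.96 to 1.07 in every library of NK, CD8 T, CD4 T and Treg cells. These ratios are descriptions over cells, without a test.

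The second comparison set Itga1+ NK cells against Itgam+ NK cells, since the study uses CD11b and CD49a to tell recently entered from retained NK cells. Both IL-18 receptor chains, *Il18rap* (2.18-fold) and *Il18r1* (1.83-fold), were lower in Itga1+ NK cells. The IL-12 receptor chains went opposite ways, with *Il12rb2* 2.30-fold lower and *Il12rb1* 1.88-fold higher. *Il2rb* was 1.37-fold lower and *Il2ra* 2.52-fold higher. In Kaede-green 2 both groups were near the *Il2ra* level of B cells, and in Kaede-green 1 Itga1+ NK cells were above it. Among the 9 receptor genes tested, 6 were called, against 36.7% of all 9066 genes, with 2 higher (19.5%) and 4 lower (17.2%). *Il1rl1* was not tested, with 11 UMIs in Itga1+ and 4 in Itgam+ NK cells.

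*Il12rb2* was at 141, 136 and 87.7 CPM in Itgam+ NK cells and at 58.4, 58.8 and 30.7 CPM in Itga1+ NK cells. The groups did not overlap, and the Kaede-red value was lowest in each (log2 fold change -1.20, SE 0.11, adjusted p = 7.61e-07). *Serbp1*, which overlaps *Il12rb2* on the other strand, went the other way, at 556, 636 and 640 CPM in Itgam+ and 750, 828 and 832 CPM in Itga1+ NK cells.

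*Il18rap* was at 204, 139 and 117 CPM in Itgam+ NK cells and 82.5, 67.2 and 45.1 CPM in Itga1+ NK cells (-1.13, SE 0.10, adjusted p = 1.06e-06). *Il18r1* was at 184, 142 and 132 CPM and 87.4, 94.8 and 49.6 CPM in the same order (-0.87, SE 0.13, adjusted p = 8.81e-05). Neither gene overlapped between the groups. With every cell thinned to 2000 UMIs, *Il18rap* was still called (-1.02, adjusted p = 0.000287) and *Il18r1* was not (-0.57, adjusted p = 0.0659).

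*Il2rb* was at 1379, 1241 and 1102 CPM in Itgam+ and 938, 913 and 700.4 CPM in Itga1+ NK cells, again without overlap (-0.45, SE 0.08, adjusted p = 0.000623). Even so, Itga1+ NK cells remained above every T cell value of *Il2rb*. *Il2ra* was at 3.88, 16.6 and 24.1 CPM in Itgam+ NK cells from only 9, 34 and 14 UMIs, and at 28.7, 30.1 and 25.8 CPM in Itga1+ NK cells (1.33, SE 0.31, adjusted p = 0.00327). The values did not overlap, but in Kaede-red they were close, and without Kaede-green 1 the difference was 0.69 (adjusted p = 0.0409). B cells, the background of free RNA, held 8.95 and 28.1 CPM of *Il2ra* in the Kaede-green libraries. Both NK groups were thus near background in Kaede-green 2. In Kaede-green 1 Itga1+ NK cells were above it and Itgam+ NK cells were not, and Kaede-red had no B cells to set beside them. *Il12rb1* was at 11.7, 13.2 and 3.44 CPM in Itgam+ NK cells, the last from 2 UMIs, and at 20.8, 16.9 and 21.0 CPM in Itga1+ NK cells (0.91, SE 0.26, adjusted p = 0.0124). After thinning, *Il12rb1* was no longer called (0.52, adjusted p = 0.445).

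*Il2rg* (-0.04, SE 0.09, adjusted p = 0.738), *Il7r* (-0.24, SE 0.37, adjusted p = 0.661) and *Il15ra* (0.56, SE 0.34, adjusted p = 0.225) were not called between the NK groups. Cell depth moved with the groups, whose gates were set before any thinning. The median Itga1+ NK cell held 8485, 10909 and 24563 UMIs, and the median Itgam+ NK cell 5244, 6573 and 6305. Library make-up differed too, with 264, 397 and 1286 Itga1+ and 400, 277 and 73 Itgam+ NK cells. Summed myeloid markers (5 genes, all above 0 except 1 of them in Kaede-red Itgam+ NK cells) were at 12.9, 444 and 15.5 CPM in Itgam+ and 22.6, 46.1 and 5.89 CPM in Itga1+ NK cells. Without Kaede-green 2, the library with the most, all 6 genes were still called (*Il12rb2* -1.27, *Il18rap* -1.24, *Il18r1* -1.13, *Il2rb* -0.51, *Il2ra* 1.69 and *Il12rb1* 1.27).

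**Figure D3:**
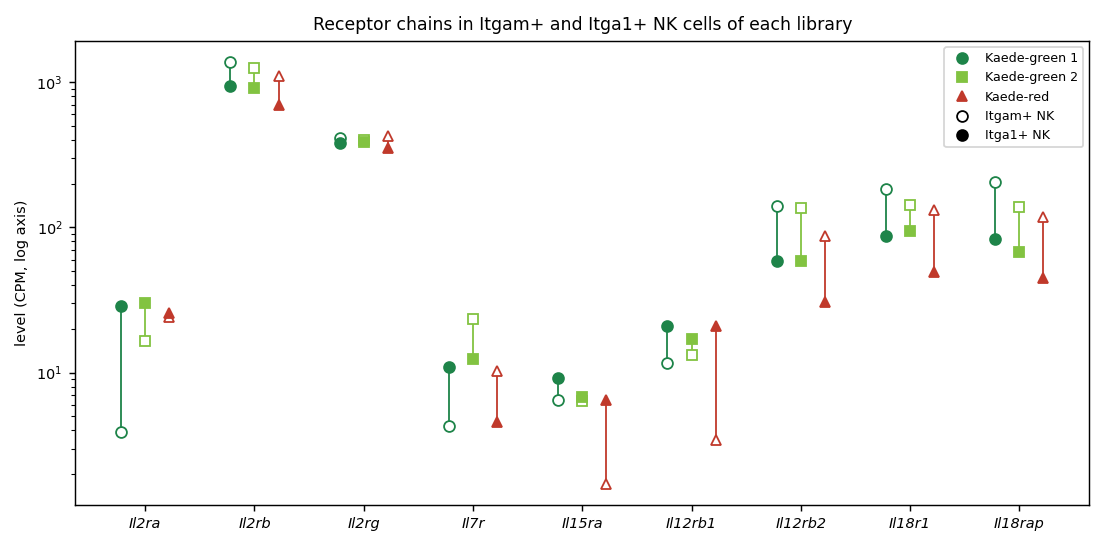
Level of the 9 tested receptor genes (x axis; CPM on a log axis) in Itgam+ NK cells (open symbols) and Itga1+ NK cells (filled symbols) of each library (shape and color), with a line joining the groups of 1 library. For *Il12rb2*, *Il18r1*, *Il18rap* and *Il2rb* each of the 3 lines runs down from open to filled, and for *Il2ra* and *Il12rb1* each runs up.

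Of the genes that act downstream of these receptors, all 7 feedback regulators and targets were called lower in Itga1+ NK cells (median log2 fold change -0.81, against -0.01 over all genes), where 17.2% of all genes were called lower and 19.5% higher. The largest differences were in *Pim1* (-1.56, SE 0.11, adjusted p = 8.9e-08), a survival kinase that cytokines induce, and *Socs3* (-1.20, SE 0.12, adjusted p = 2.1e-06), an inhibitor of cytokine signaling, followed by *Socs2* (-0.83) and *Pim2* (-0.81). Of the 8 kinases and STATs, 6 were lower and none higher, among them *Tyk2* (-0.87), *Stat4* (-0.83) and *Jak2* (-0.81), which serve the IL-12 receptor, and *Jak1* (-0.77). Of 6 genes of IL-18 and IL-33 signaling, *Traf6* (-0.74) and *Irak2* (-0.73) were lower and 4 were not called. Of the 3 tested receptors that share a chain with these, *Il4ra* (-0.67) and *Il21r* (-0.49) were lower and *Crlf2* (0.24) was not called. After thinning, calls over all genes went from 3324 to 828, and in the lists 3 feedback genes, 2 kinases or STATs and 0 genes of the other 2 lists were called. Without the library block 4 feedback genes were called.

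**Figure D4:**
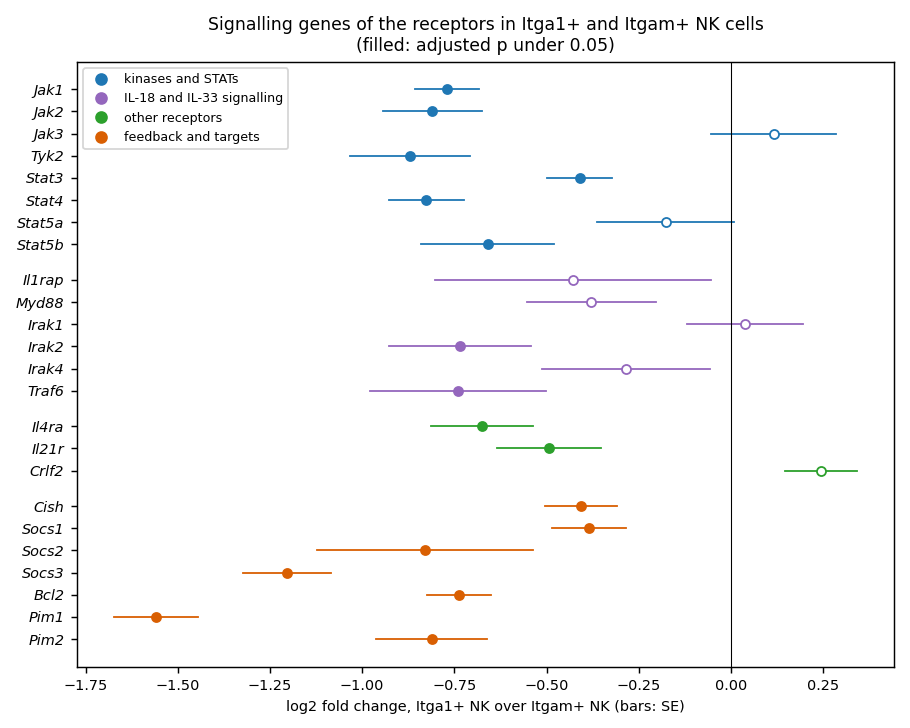
Log2 fold change of Itga1+ over Itgam+ NK cells (x axis, bars are SE) for tested genes of 4 signaling lists (colors, y axis), filled where the adjusted p of edgeR's quasi-likelihood test was under 0.05. All 7 feedback and target genes lie below 0, with *Pim1* lowest at -1.56, and 6 of 8 kinases and STATs are filled below 0.

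The same lists were counted between cell types. Treg cells held less *Bcl2* (NK over Treg, log2 fold change 4.23, SE 0.23, adjusted p = 1.7e-08) and *Pim2* (3.11) than NK cells, and more *Socs2* (-3.00) and *Pim1* (-1.06), so 3 feedback and target genes were higher and 2 lower in NK cells. Of the kinases and STATs, 3 were higher and 3 lower in NK than in Treg cells (of all genes, 19.2% higher and 22.5% lower), with *Stat4* at 1.36 (SE 0.13) and *Jak2* at -1.19. *Stat4*, the IL-12 signal transducer, was also lower in Treg than in CD4 T cells (CD4 T over Treg, 1.67, adjusted p = 6.5e-06). *Il21r* was 2.15 log2 units lower in NK than in CD8 T cells (-2.15, SE 0.14, adjusted p = 1.2e-07).

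Of the 8 ligand and decoy genes, 3 were expressed enough to be tested. *Il2* was highest in CD4 T cells, at 9.93, 44.7 and 63.6 CPM, and at 0.88 to 4.06 CPM in all other types (CD8 over CD4 T cells, -3.55, SE 0.38, adjusted p = 5.2e-05). *Il15* was low everywhere and higher in NK than in CD8 T cells (5.44, 4.27 and 1.85 against 0.89, 1.10 and 0.59 CPM, log2 fold change 2.10, SE 0.32, adjusted p = 0.00026). *Il18bp*, the decoy that binds IL-18, was higher in CD4 T than in Treg cells (1.40, adjusted p = 0.0042). Among the neighbors on chromosome 1, the decoy receptor *Il1r2* was higher in Treg than in NK cells (NK over Treg, -5.96, SE 0.57, adjusted p = 2.0e-06).

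The third comparison set KR+ cells beside KG+ cells within a cell type. With 1 Kaede-red library, color and library cannot be told apart and no test was made. A gene was counted where both ratios of Kaede-red to a Kaede-green library had the same sign, were at least 1.5-fold and exceeded the ratio between the Kaede-green libraries. In NK cells, *Il12rb2* (log2 ratios -1.35 and -1.16 to Kaede-green 1 and Kaede-green 2), *Il18r1* (-1.27 and -0.89) and *Il18rap* (-1.38 and -0.81) were lower in Kaede-red. *Il1rl1* also met the rule, with 6, 32 and 5 UMIs. Thus 4 of 10 receptor genes were lower, against 15.4% of all genes, and 0 were higher (5.02%).

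The same ratios were taken within Itga1+ NK cells, which made 1286 of the 2758 NK cells in Kaede-red but 264 of 2359 and 397 of 2341 in the Kaede-green libraries. There, *Il12rb2* (-0.93 and -0.94), *Il18r1* (-0.82 and -0.93) and *Il7r* (-1.27 and -1.43) were lower in Kaede-red, which is 3 of 9 genes tested against 7.47% of all genes, and none was higher (1.37%). *Il18rap* did not meet the rule there (-0.87 and -0.58). The *Il7r* levels, at 11.0, 12.4 and 4.61 CPM, were near background, since B cells of the Kaede-green libraries held 10.4 and 10.8 CPM. Within Itgam+ NK cells, *Il12rb2* (-0.67 and -0.63), *Il12rb1* with 2 UMIs in Kaede-red and *Il15ra* with 1 were lower (11.8% of all genes), and none was higher (6.52%). In NK cells with every cell thinned to 2000 UMIs, *Il12rb2* (-1.17 and -1.07), *Il18r1* (-1.01 and -0.71) and *Il18rap* (-1.35 and -0.81) still met the rule. *Il12rb2* met it after thinning in both NK groups as well (Itga1+ NK -1.07 and -1.33, Itgam+ NK -1.07 and -1.20). In thinned Itga1+ NK cells *Il18r1* (-0.78 and -1.04) and *Il18rap* (-1.14 and -0.75) met it too. *Il7r* no longer did (-0.80 and -0.49, from 9, 11 and 26 UMIs). The median depth per NK cell, which was highest in Kaede-red, moved with these ratios, and its part in the unthinned values was not tested.

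In the other cell types *Il12rb2*, *Il18r1* and *Il18rap* did not meet the rule, except in thinned sums of Treg cells, where *Il12rb2* was higher (1.13 and 0.69) and *Il18r1* lower (-1.18 and -0.79) in Kaede-red. ILC-like cells of Kaede-red held less *Il2ra* (-0.93 and -0.84), *Il7r* (-1.23 and -0.65) and *Il15ra* (-1.22 and -1.17), which is 3 of 10 against 6.83% of all genes lower and 2.53% higher. None of these met the rule after thinning, when they rested on 14 to 31 UMIs per library for *Il2ra* and *Il7r*. In CD8 T cells only *Il1rl1* was counted, with 33, 55 and 34 UMIs (5.56% of all genes lower, 3.5% higher), and the 9 other receptor genes were within the rule. Whether color differences themselves differ between cell types was not tested.

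CD4 T and Treg cells each held more of 1 receptor gene in Kaede-red. In CD4 T cells *Il2ra* was higher (1.54 and 0.82, 8.74% of all genes higher and 6.22% lower), and thinned sums gave 1.91 and 1.20. The summed Treg markers of the CD4 T gate moved with it, at 1477, 1715 and 2668 CPM, and their part in the difference was not tested. In Treg cells *Il7r* was higher (1.17 and 1.17, 4.98% of all genes higher and 6.1% lower), at 2.25 times the level of Kaede-green 1 (exact 95% interval 2.06 to 2.47), and thinned sums gave 0.83 and 0.84. *Il2ra* in Treg cells, at 661, 574 and 740 CPM, stayed within the rule.

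**Figure D5:**
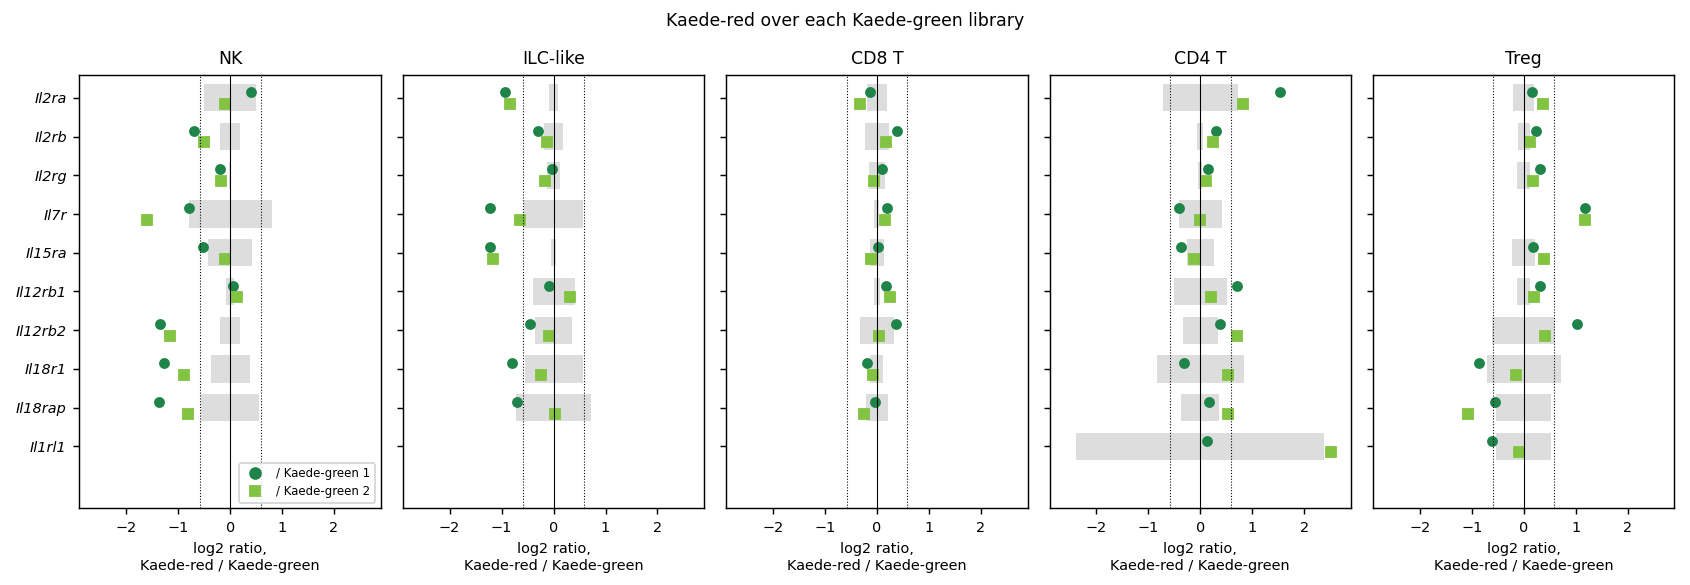
Log2 ratio of Kaede-red to Kaede-green 1 (dark green circles) and to Kaede-green 2 (light green squares) for each receptor gene (y axis) in 5 cell types (panels); gray bars span the ratio between the Kaede-green libraries to either side of 0, and dotted lines mark 1.5-fold. *Il1rl1* is shown only in CD4 T and Treg cells because of its few UMIs elsewhere. In NK cells both points of *Il12rb2*, *Il18r1* and *Il18rap* lie left of the dotted line, and in Treg cells both points of *Il7r* lie right of it at 1.17.

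Of the signaling genes in NK cells, 6 of 8 kinases and STATs, 4 of 7 feedback and target genes and 3 of 6 genes of IL-18 and IL-33 signaling were lower in Kaede-red and none was higher, against 15.4% of all genes lower and 5.02% higher. *Pim1* was lower by log2 ratios of -1.88 and -1.32, *Socs3* by -1.61 and -1.31, and *Jak2* by -1.16 and -1.33. *Stat4* stood at -0.89 and -0.75. Within Itga1+ NK cells, 2 of 8, 2 of 7 and 2 of 6 genes of the same lists were lower (7.47% of all genes). Within Itgam+ NK cells these counts were 2, 0 and 1 (11.8%). None was higher in either group (1.37% and 6.52%). *Jak2* was counted in both groups, and *Pim1* and *Socs3* in Itga1+ NK cells only. The part of the mix of NK groups in the counts over all NK cells was not tested. *Socs2* was lower in NK cells (-0.80 and -0.79) but higher in Treg (1.43 and 1.30), CD4 T (1.59 and 1.16) and CD8 T cells (0.75 and 0.80). No other feedback and target gene was counted in Treg cells. *Socs3* was lower in CD4 T cells (-1.48 and -0.99), and *Socs3* (-1.69 and -1.02) and *Pim1* (-1.23 and -0.82) in CD8 T cells. *Jak2* was lower in CD8 T cells too (-0.86 and -1.03), but was not counted in CD4 T or Treg cells. In ILC-like cells *Pim1* (-2.07 and -1.13), *Socs3* (-1.13 and -0.84) and *Jak2* (-1.85 and -1.35) were all lower. Of all genes, 4.98% were higher and 6.1% lower in Treg, 8.74% and 6.22% in CD4 T and 3.5% and 5.56% in CD8 T cells. In ILC-like cells the shares were 2.53% and 6.83%. The Itga1+ and Itgam+ comparison and these color ratios use the same cells and are not independent of each other.

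For each receptor gene, the genes with the most similar pattern were found over the 15 sums of 5 cell types and 3 libraries, after each library's mean was taken off, among 11065 genes. Pearson's r was highest with *Ikzf2* for *Il2ra* (0.974), *Tgfb1* for *Il2rb* (0.981), *Tab2* for *Il2rg* (0.927), *Cxcr6* for *Il7r* (0.972) and *Cradd* for *Il15ra* (0.949). It was highest with *Atp6v0a1* for *Il12rb1* (0.956), *Itgal* for *Il12rb2* (0.959), *Tbc1d1* for *Il18r1* (0.950), *Degs2* for *Il18rap* (0.969) and *Inf2* for *Il1rl1* (0.926). Among the receptor genes themselves, *Il18rap* was most like *Il12rb2* (0.917) and its neighbor *Il18r1* (0.852), and *Il2ra* was like *Il1rl1* (0.838) and inverse to *Il18rap* (-0.860). Sums of 1 library share its depth and sums of 1 cell type its identity, so these values describe an order over cell types and carry no test.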

How the data were processed

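Single-cell RNA-sequencing counts of 3 libraries were analyzed. The files the authors deposited hold raw UMI counts (10x Genomics 3′ v3) for the barcodes that Cell Ranger took as cells, without normalization; the submitters' processing notes name version 6.1.2 and the file header 6.0.1, and the build is mm10. Libraries shared 20, 28 and 36 cell barcodes. There were 0 columns of unknown sample.

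After the study's methods, a cell needed 1000 to 6000 genes and a mitochondrial share below 7.5%. Doublets were scored against simulated ones, and the highest scoring cells were removed at 0.8% per 1000 barcodes (8.55% to 10.2% of barcodes), leaving 9126, 9895 and 9773 cells of 10498, 12327 and 11956. Cells in more than 1 T cell gate (63, 225 and 120) were left out. Since cells are not replicates, UMIs were summed per library and cell type and tested with edgeR 4.0.16 (R 4.3.3; quasi-likelihood test, TMM, filterByExpr, Benjamini-Hochberg threshold 0.05). Sums of 1 library are paired by construction, so the library was the block. The p-values thus measure how much the differences between cell types or NK groups varied over the 3 libraries, which are not all of the same color. The study split its sorted TILs into KG+ and KR+ cells. The labels do not state whether Kaede-red shares tumors with a Kaede-green library, so the 3 libraries are not known to be independent. Ratios used 0.5 added to each count. Poisson and binomial intervals are exact at 95%, and for thinning to 2000 UMIs shallower cells were left out (1 of 7458 NK cells). DESeq2 1.42.0, other filters, gates and left-out libraries were alternatives. Python 3.11.15, numpy 2.4.6, scipy 1.17.1 and pandas 2.3.3 were used.

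The members and lists were chosen with earlier results of these data known. All 10 members are named, and of each list at most the 4 largest called changes per comparison. One gene of the kinase and STAT list is not reported here and is left out of that list's counts and medians. Likeness took the genes with the highest r, without the gating genes. On simulated data, 98.5% of 200 genes changed 2-fold were recovered for NK against CD8 T cells (8564 genes) and 68.5% for the NK groups (8301 genes). False calls made 6.19% and 1.44% of the calls. The simulation left out genes of low level, gave every gene the same spread and gave both groups the same library effect. Its recovery therefore does not carry over to receptor genes with few UMIs or a larger spread.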

Additional observations from a re-analysis of the deposited data

Results flagged for a closer look

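The ratio of Kaede-red to the Kaede-green libraries had opposite signs in some pairs of cell types, beyond the difference between the Kaede-green libraries in each. *Il2ra* was higher in Kaede-red CD4 T cells, with log2 ratios of 1.54 to Kaede-green 1 and 0.82 to Kaede-green 2, and lower in Kaede-red ILC-like cells, with -0.93 and -0.84. *Il7r* was higher in Kaede-red Treg cells, with 1.17 to each Kaede-green library, and lower in Kaede-red ILC-like cells, with -1.23 and -0.65. The difference between the cell types was not tested, since there was 1 Kaede-red library. The ILC-like values rested on 79, 137 and 239 cells and did not meet the rule after thinning.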

How the results depend on the processing

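Of 42 calls over the receptor genes, 28 held under every alternative and 0 changed sign in any; the alternatives were other size factors, DESeq2, no filter on low counts, no doublet removal, all barcodes, thinning, other gates, no library block and each library left out. The sums of 1 library form a pair, and fitting without this library block changed 1 of the 42 calls, *Il18r1* in NK against CD4 T cells (adjusted p = 0.0867), which left 4 of 5 calls there. Counts of receptor genes called moved by over 1.5 times for CD8 against CD4 T cells, from 4 to 1 with cells of several T cell gates kept. With 1 library left out they ranged from 0 to 2 for ILC-like against NK, 4 to 7 for NK against CD8 T, 3 to 7 for NK against CD4 T, 9 to 10 for NK against Treg, 1 to 6 for CD8 against CD4 T, 6 to 8 for CD8 T against Treg, 4 to 7 for CD4 T against Treg and 6 to 6 for the NK groups. The lowest counts, 0, 3 and 1, were without Kaede-green 1, Kaede-green 1 and Kaede-green 2, and the 7 of NK against CD8 T cells was without Kaede-red. The cause was not tested. Counts over all genes ranged from 70 to 522 (main 269), 1286 to 4577 (2816), 1975 to 4397 (3984), 2624 to 5778 (4621), 474 to 3419 (2561), 1391 to 3864 (3038), 419 to 3888 (2168) and 828 to 3562 (3324) in the same order.

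Of the differences that changed sign, none was called where its sign was turned. Some were called in their first direction with a library left out (*Il12rb2*, *Il18rap* and *Il1rl1* for NK over CD8 T, *Il7r* for CD8 T and CD4 T over Treg, *Il1rl1* for ILC-like over NK), the last also without the filter on low counts (2.61, adjusted p = 0.0104). With 1 library left out, log2 fold changes of ILC-like over NK cells ranged from -0.094 to 0.044 for *Il2rb*, -0.71 to 0.087 for *Il15ra*, -0.36 to 0.038 for *Il12rb2*, -0.26 to 0.10 for *Il18rap* and -0.14 to 4.59 for *Il1rl1*. Those of NK over CD8 T cells ranged from -0.12 to 0.55 for *Il12rb2*, -0.38 to 0.017 for *Il18r1* and -0.0078 to 0.55 for *Il18rap*. CD8 T over Treg cells gave -0.027 to 0.090 for *Il2rg* and -0.050 to 0.58 for *Il7r*, CD4 T over Treg cells -0.048 to 0.0069 for *Il2rb* and -0.022 to 0.94 for *Il7r*, and the NK groups -0.0998 to 0.032 for *Il2rg* and -0.89 to 0.64 for *Il7r*. With all barcodes, *Il2rb* was 0.025 and *Il18rap* 0.013 for ILC-like over NK cells and *Il2rg* -0.0047 for NK over CD4 T cells. Thinned sums gave 0.0043 for *Il2rb* of ILC-like over NK, 0.90 for *Il1rl1* of NK over CD8 T, 0.0067 for *Il12rb1* of NK over CD4 T, -0.016 for *Il2rg* and -0.093 for *Il7r* of CD8 T over Treg, and 0.14 for *Il2rg* of the NK groups. A gate of 2 UMIs of *Ncr1* gave 0.0098 for *Il2rb* and -0.019 for *Il12rb1* of ILC-like over NK cells. For CD8 T over Treg cells *Il2rg* was -0.0058 with other size factors and -0.0069 with DESeq2. For CD4 T over Treg cells *Il2rb* was 0.098 with doublets and 0.17 with cells of several gates, and between the NK groups *Il2rg* was 0.00091 without the filter.

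Counts lower in Kaede-red under the fold rule went from 4 to 2 in NK, 3 to 1 in ILC-like and 3 to 1 in Itga1+ NK cells at a 2-fold minimum, and the count higher in CD4 T cells from 1 to 0. With no fold minimum 2 were higher in CD8 T, 4 in CD4 T and 4 in Treg cells, and 1 was lower in Treg and 7 in Itga1+ NK cells. Thinned sums gave 1 higher and 0 lower in ILC-like, 1 lower in CD4 T, 2 higher and 1 lower in Treg and 1 lower in Itgam+ NK cells, and with doublets kept 1 was higher in ILC-like and 1 lower in Treg cells. Without 1 Kaede-green library the counts were 5 to 6 lower in NK, 1 to 1 higher and 3 to 5 lower in ILC-like, 2 to 3 higher in CD4 T, 1 to 2 higher and 1 to 2 lower in Treg, 3 to 4 lower in Itga1+ NK, and 0 to 2 higher and 4 to 4 lower in Itgam+ NK cells, since the rule then has only 1 ratio. Depth limits *Il1rl1* outside Treg cells and *Il2ra*, *Il12rb1* and *Il15ra* in Itgam+ NK cells, where as few as 1 UMI was counted.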
